A study of Mus musculus with 2 samples.

Results

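The genes described here are 10 that mark cholinergic neurons or carry cholinergic transmission in the mouse: Chat, Slc18a3, Slc5a7, Ache, Lhx8, Isl1, Gbx1, Chrm1, Chrm2 and Chrna4. They were chosen by what they are known for and selected on the differences in processed signal between the 2 arrays of the series, which were known when the set was drawn up. Probes were taken by gene name, and all 10 genes were found, on 21 probes. The arrays had 37324 named entries in all, of which 24112 genes gave signal well above background on both arrays.

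Both samples were total RNA labelled as brain, from C57BL/6J mice at postnatal day 10, hybridised to 1-colour Agilent expression arrays. One sample had the genotype GPHR F/F;Nes and is called F/F;Nes below. The control was a littermate, GPHR F/F, that carries the same F/F alleles. GPHR is the Golgi pH regulator, encoded by Gpr89, and the series is titled for its loss in brain. The labels name no driver or cell type for "Nes", no brain region and no number of animals behind an RNA sample. With 1 array per genotype, the differences below were not replicated and could not be tested.

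Cholinergic neurons make acetylcholine from choline and acetyl-CoA with choline acetyltransferase, load it into vesicles with the vesicular acetylcholine transporter, and take choline back up through a high-affinity transporter after acetylcholinesterase has split the released transmitter. In the brain these cells include projection neurons of the basal forebrain, interneurons of the striatum, and motor and tegmental neurons of the brainstem. LIM and other homeodomain factors specify them, and muscarinic (G protein-coupled) and nicotinic (ion channel) receptors on many other neurons respond to the transmitter.

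The probes on which the results turn are shown by the last 30 of their 60 bases, 5′ to 3′. In Slc18a3 the capitals mark the polyadenylation signal AATAAA, a motif found near transcript ends, and in the brightest Chat probe they mark a run of 23 bases built from an AAAG repeat. The other Chat sequences are those of the remaining probes measured on both arrays, and Slc5a7 and Lhx8 are shown with both of their probes.
Slc18a3 probe: ggcctgaattAATAAAccatatctgtctga
Slc5a7 brighter probe: gctcagtgccaaaatccaatttcattgtta
Slc5a7 dimmer probe: tcatggagtctcattcatactgtagacctt
Lhx8 lower probe: gtgttttcgggacaagctgaaggcacgtcc
Lhx8 other probe: accattcttcctcggcccccgtcacagctg
Chat repeat probe: gctattcAGAAAGAAAGAAAGAAAGAAAGA
Chat junction probe: taagttgccagtgcccccactgcagcaaac
Chat 5′ variant probe: ggaaggaagattgattcagtcagtcggggc

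Signals are given in the scanner's linear units, and differences as log2 of F/F;Nes over the control after each array was set to its own 75th percentile of probe signals (259.5 units in control brain, 173.4 units in F/F;Nes brain). A ± is the error that the scanner software gives for the spots, which leaves out the variation between animals. For a gene mean it combines the errors of the probes as if independent, and leaves out the spread between probes. A gene's difference is the mean over its probes that the software called well above background on both arrays. Where a probe was well above background on 1 array alone, the fold is a bound against the higher of its own dim signal and the lowest signal called well above background on the dimmer array, which was 6.28 units in control brain and 5.06 units in F/F;Nes brain.

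The targeted gene, Gpr89, was 1.44-fold lower in F/F;Nes (-0.53 ± 0.22). Xist, the RNA of the inactive X chromosome, had signal on the F/F;Nes array only, and the Y-linked Ddx3y, Eif2s3y and Uty on the control array only, so sex and genotype cannot be told apart. Of the distinct probes 67.0% in the control and 69.2% in F/F;Nes were well above background, and 0 spots were saturated.

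The vesicular and uptake transporters were lower in F/F;Nes, and Ache was lower too. Among 9 members with signal on both arrays, 2 (Slc18a3 and Ache) were lower by 2-fold or more and 0 were higher by as much. Slc5a7 had signal on the control array only, with a bound beyond 2-fold. Among all 24112 genes 1.37% were at least 2-fold lower and 7.93% at least 2-fold higher. By probe, 5 of the 16 member probes with signal on both arrays were lower by 2-fold or more and 2 were higher by as much, against 1.45% and 7.11% of all probes. The members were chosen with these differences known, so these counts are a description. In all, 6 of the 9 members lay below 0 and 3 above it, with a median of -0.28. Of all 24112 genes 10382 lay below 0, and their median was 0.07. Fewer cholinergic cells and less of these RNAs per cell cannot be told apart in bulk RNA. The counts depend on the processing. Of the 9 members 8 lay below 0 with quantile normalization and 9 with scaling to spike-in RNAs. The median of all genes was then -0.03 and -0.96. With normexp background correction and quantile normalization together, Slc18a3 was at -0.83 and Ache at -0.72, and 0 members were 2-fold lower, as were 0.361% of all genes. Scaling to spike-in RNAs put 6 of 9 members at least 2-fold lower, but also 46.0% of all genes.

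**Figure D1:**
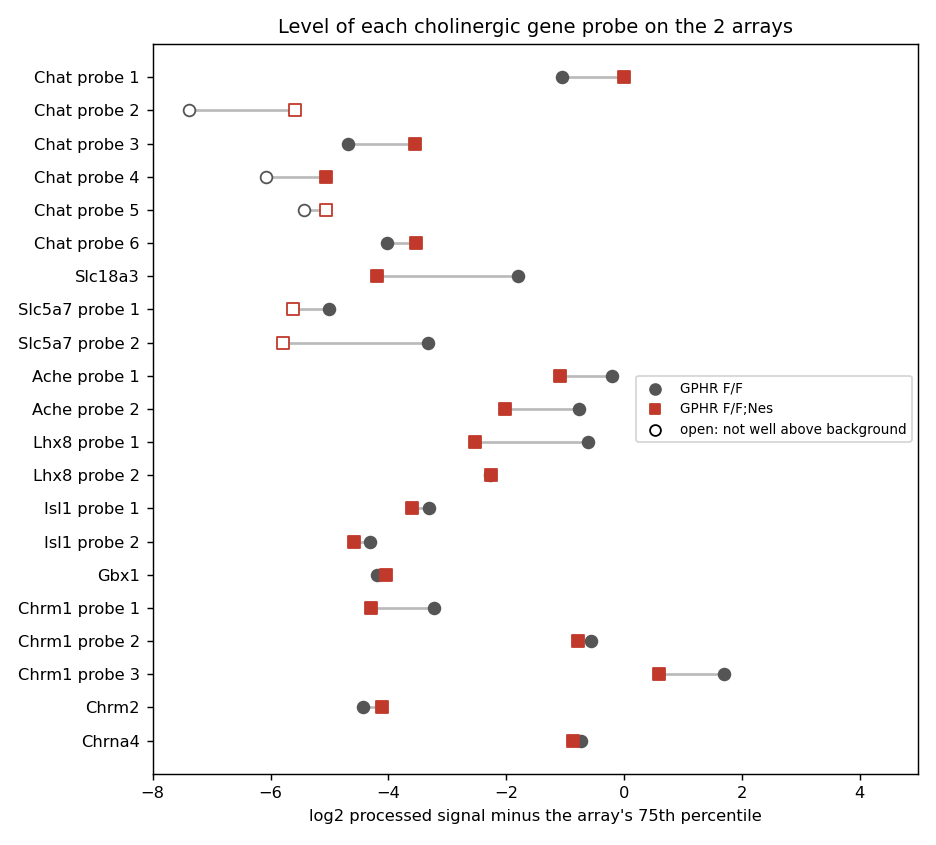
Level of each of the 21 probes on both arrays, as log2 processed signal minus the array's 75th percentile on the x axis, with circles for GPHR F/F, squares for F/F;Nes and open symbols where the signal was not well above background. Chat probe 1 is the repeat probe, and Slc18a3, Slc5a7 probe 2 and Lhx8 probe 1 are the probes whose F/F;Nes level lies farthest to the left of the control level.

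Slc18a3 encodes the vesicular acetylcholine transporter, which fills synaptic vesicles. Its single probe (chr14:33275627-33275686 on mm9, minus strand) gave 74.8 units in control brain and 9.45 units in F/F;Nes brain. The difference was -2.40 ± 0.27, or 5.29-fold lower, rank 10 from the lowest of the 24112 genes. The F/F;Nes signal was called well above background, near the 5.06 units at which such calls begin on that array.

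Slc5a7 encodes the high-affinity choline transporter, which returns choline to the terminal. Its brighter probe (chr17:54413269-54413328 on mm9) gave 25.9 units in control brain and 3.12 units in F/F;Nes brain, where it was not well above background, a level at least 3.42-fold lower. Its dimmer probe (chr17:54413771-54413830) gave 8.10 units and 3.52 units, at least 1.07-fold lower. Both probes were thus well above background on the control array only. Of the 700 genes of that kind, 17.7% had a bound of 2-fold or more. With normexp and quantile normalization together the bound of the brighter probe was -0.47 on the log2 scale, short of 2-fold.

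Ache encodes acetylcholinesterase, which splits acetylcholine in the synaptic cleft and is made by cholinergic and many receiving neurons. On chromosome 5 one probe gave 225.3 units in control brain and 81.8 units in F/F;Nes brain, and the other 152.7 units and 42.7 units. Both were lower in F/F;Nes, by -0.88 ± 0.21 and -1.26 ± 0.21. The gene mean was -1.07 ± 0.15, or 2.10-fold lower, the member just past the 2-fold threshold.

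Chat encodes choline acetyltransferase, the enzyme that makes the transmitter, and its probes went the other way from its neighbour Slc18a3. Of 6 probes, 3 were well above background on both arrays, 1 on the F/F;Nes array only and 2 on neither. The repeat probe (chr14:33221421-33221480 on mm9) gave 125.3 units in control brain and 173.2 units in F/F;Nes brain. The probe called the junction probe, whose 60 bases span 3918 bases of the genome, gave 15.9 units and 14.9 units. The probe designed on a 5′ transcript variant gave 10.1 units and 14.8 units. Its 60 bases span 1088 bases, so it crosses a junction too. After scaling these differences were 1.05 ± 0.20, 0.49 ± 0.27 and 1.13 ± 0.31, all above 0.

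The gene mean for Chat was 0.89 ± 0.15, and 0.81 without the repeat probe. The probe measured on the F/F;Nes array only gave 3.85 units in the control and 5.19 units, at least 1.24-fold higher. The probes below background on both arrays gave 1.55 and 6.00 units in the control and 3.62 and 5.20 units in F/F;Nes, and carry no fold. When both arrays were scaled to their spike-in RNAs instead, the Chat mean was -0.14, so its direction depends on the scaling.

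Probes that hold a simple repeat (at least 5 units of AG or AC, or at least 3 units of AAAG) differed as a class, which bears on the brightest Chat probe. Of the 162 such probes with signal on both arrays, 75.3% were higher in F/F;Nes by 2-fold or more, with a median of 1.43, against 6.81% of the 36555 probes without such a repeat, whose median was 0.04. Within the class the 14 probes with an AAAG repeat, the unit in the Chat probe, had a median of 0.84, and 6 of them were higher by 2-fold or more. The part of the repeat in the Chat probe's signal was not tested. The remaining Chat probes were dim, and dim genes in general lay higher. With all genes split by mean level into 3 equal bins, the median was 0.34 and 15.5% were at least 2-fold higher in the dimmest bin, 0.05 and 5.25% in the middle bin, and -0.07 and 3.07% in the brightest.

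**Figure D2:**
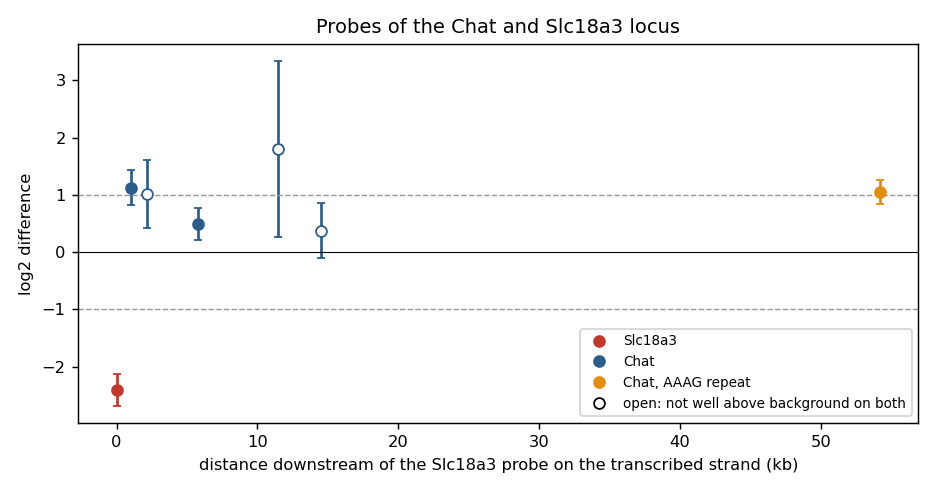
Difference (log2, F/F;Nes minus control) of each Chat and Slc18a3 probe against its distance in kb downstream of the Slc18a3 probe along the transcribed strand, with bars for the scanner software's error and open symbols where a probe was not well above background on both arrays. The Slc18a3 probe lies at -2.40, while the measured Chat probes, from 1.028 to 54.206 kb downstream, lie between 0.49 and 1.13.

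Chat and Slc18a3 share one locus, in which the Slc18a3 gene lies inside the Chat transcription unit on the same strand. In RefSeq (GRCm38.p6) the start sites used for them are 1059 bases apart. Whether the 5′ transcript variant of Chat with a probe above begins at the Chat start used was not analysed. The 250 bases before each start are shown, since these neighbours had opposite differences with the main scaling. The E-box CACGTG is in capitals. A link between these bases and the differences was not tested.
Chat, chr14:32465910-32466159, minus strand: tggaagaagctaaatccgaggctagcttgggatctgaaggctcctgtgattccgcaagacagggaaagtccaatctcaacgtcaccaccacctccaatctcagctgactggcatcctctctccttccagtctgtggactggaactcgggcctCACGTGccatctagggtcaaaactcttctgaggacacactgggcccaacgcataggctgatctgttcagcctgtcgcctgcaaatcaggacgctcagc
Slc18a3, chr14:32464851-32465100, minus strand: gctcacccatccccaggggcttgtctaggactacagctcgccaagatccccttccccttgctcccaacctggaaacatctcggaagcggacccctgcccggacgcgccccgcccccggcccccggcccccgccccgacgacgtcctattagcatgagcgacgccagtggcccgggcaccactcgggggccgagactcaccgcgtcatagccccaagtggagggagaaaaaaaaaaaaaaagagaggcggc

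The Slc18a3 sequence had 66.0% G and C and 21 CpG sites, and the Chat sequence 54.8% and 8 CpG sites, against medians of 52.4% and 6 over 32851 promoters of the same length. RefSeq promoters were matched for 8 of the 10 members. On either strand, CACGTG was found in Chat and Ache among the members and in 6.02% of all promoters. The homeodomain core TAATTA (4.84% of promoters), CAATTA (7.17%) and TCAGCACC, the core of the element bound by the repressor REST (1.32%), were not among the letters of these 8 windows.

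The transcription factors of cholinergic lineages among the members differed little or unevenly. Lhx8, a LIM homeodomain factor required for basal forebrain and striatal cholinergic neurons, gave 169.2 units in control brain and 30.1 units in F/F;Nes brain on one probe (chr3:153969377-153969436 on mm9). Its other probe (chr3:153974609-153974668) gave 53.8 units and 36.4 units. The probes disagreed, with -1.91 ± 0.21 and 0.02 ± 0.21. The mean of -0.95 ± 0.15 lay just short of 2-fold. Of 8078 genes with several measured probes, 1.11% had a range between probes as wide as this (1.93), and the median range was 0.32.

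Isl1, a LIM homeodomain factor of motor neurons and striatal cholinergic interneurons, gave 26.2 and 13.1 units in the control and 14.3 and 7.25 units in F/F;Nes on its 2 probes. These differed by -0.29 ± 0.25 and -0.27 ± 0.32, with a gene mean of -0.28 ± 0.20. Gbx1, a homeodomain factor found in ventral forebrain cholinergic cells, gave 14.2 units in control brain and 10.6 units in F/F;Nes brain, a difference of 0.16 ± 0.28. Both genes were dim. The Isl1 mean exceeded its software error, but its dimmer probe (-0.27 ± 0.32) did not, nor did the Gbx1 difference. With 1 array per genotype these errors do not show whether either gene differed between genotypes.

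With the main scaling the receptors on receiving neurons differed in direction, but the Chrm2 and Chrna4 differences were within their software errors. Chrm1, the main muscarinic receptor of cortex and hippocampus, gave 840.9, 176.7 and 27.9 units in the control and 262.2, 101.2 and 8.79 units in F/F;Nes on its 3 probes. All were lower, by -1.10 ± 0.20, -0.22 ± 0.21 and -1.08 ± 0.30, with a mean of -0.80 ± 0.14. The probe that differed least crosses an intron, since its 60 bases span 12921 bases of chromosome 19 on mm9, and 13.4% of genes with several probes had a range between probes as wide as that of Chrm1 (0.88).

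Chrm2, the inhibitory muscarinic receptor that also acts as an autoreceptor on cholinergic terminals, gave 12.1 units in control brain and 10.0 units in F/F;Nes brain, a difference of 0.31 ± 0.33. Chrna4, the alpha subunit of the main high-affinity nicotinic receptor of brain, gave 156.8 units and 95.2 units, a difference of -0.14 ± 0.21. Neither exceeded its software error. The signs for Chrm2 and Gbx1 depend on scaling: under quantile normalization they were -0.13 and -0.26.

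**Figure D3:**
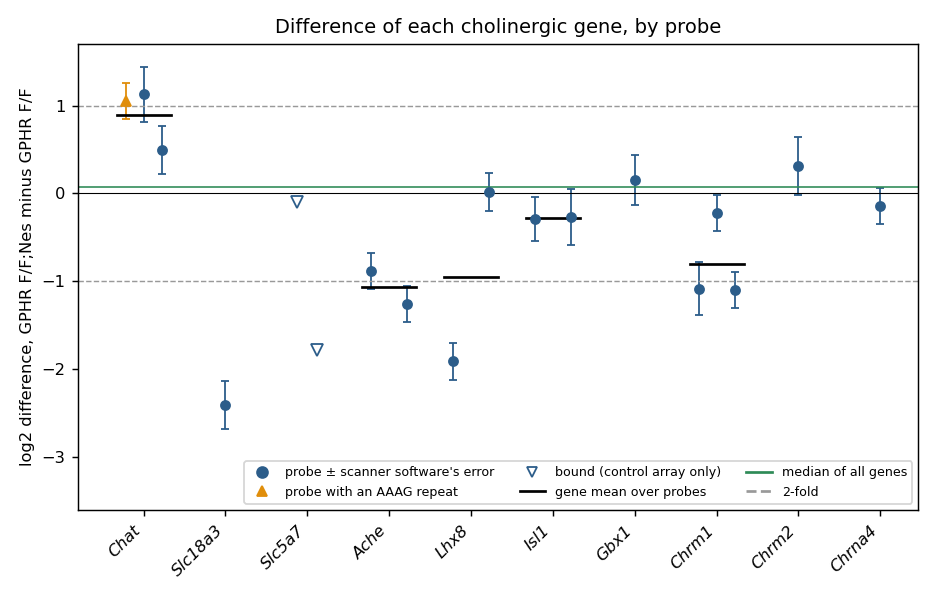
Difference of each gene (log2, F/F;Nes minus control) by probe, with bars for the scanner software's error, black lines for the mean of genes with several probes, open triangles for the Slc5a7 bounds, a filled triangle for the Chat repeat probe and dashed lines at 2-fold. Slc18a3 lies lowest at -2.40, and the Lhx8 probes lie apart at -1.91 and 0.02.

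By mean level, 5 of the 9 members measured on both arrays (Chat, Chrm2, Gbx1, Isl1 and Slc18a3) were in the dimmest of the 3 bins, 4 (Ache, Chrm1, Chrna4 and Lhx8) in the middle bin and 0 in the brightest. Genes at least 2-fold lower made up 1.61%, 1.33% and 1.17% of these bins. The bins use the mean of both arrays, so a gene's own difference enters its bin.

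**Figure D4:**
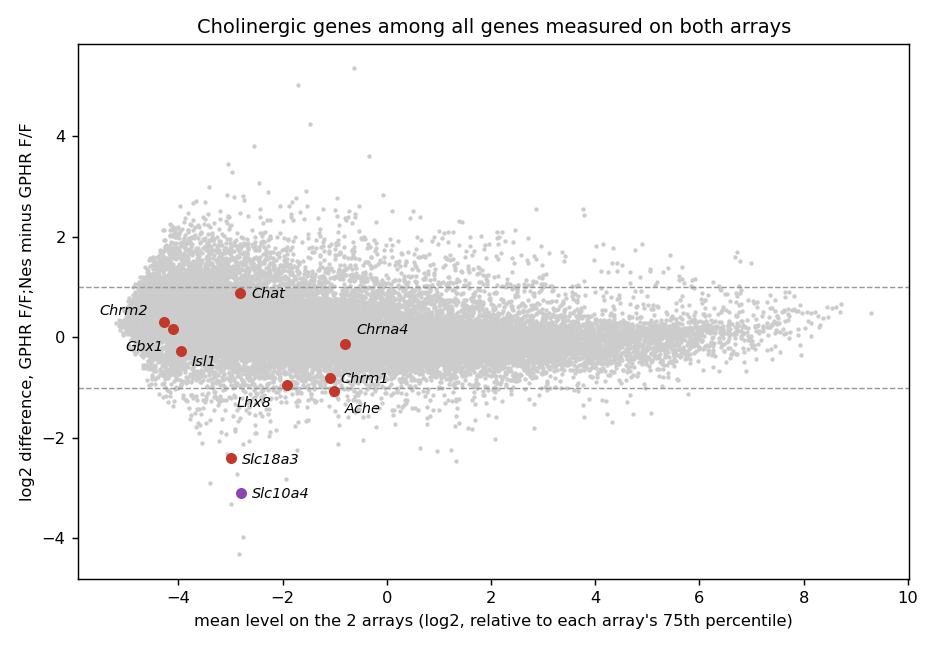
Difference (log2, F/F;Nes minus control) of the 24112 genes measured on both arrays against their mean level (log2, relative to each array's 75th percentile), with 9 members in red, Slc10a4 in purple and dashed lines at 2-fold. Slc18a3 at -2.40 and Slc10a4 at -3.10 lie below nearly all genes of their level, while Chat lies at 0.89.

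The wider pathway was read from 6 lists of 85 further genes, of which 60 were measured on both arrays. In these lists 2 genes were at least 2-fold lower (Slc10a4 and Npy1r) and 6 at least 2-fold higher, with a median of 0.03. The background over all genes is the 1.37% and 7.93% above.

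Among 21 genes of choline uptake and acetylcholine turnover, 17 were measured on both arrays, with 1 at least 2-fold lower, 1 at least 2-fold higher and a median of -0.004. Slc10a4 encodes a transporter-like protein of the synaptic vesicles of cholinergic and monoaminergic neurons. Its probe (chr5:73404134-73404193 on mm9, plus strand) gave 109.0 units in control brain and 8.52 units in F/F;Nes brain, a difference of -3.10 ± 0.29, or 8.55-fold lower. This was rank 4 from the lowest of all genes, and it was the widest difference in any of the 6 lists. With normexp and quantile normalization together it was -1.15. The last 30 bases of the probe are shown because of that rank.
Slc10a4 probe: cctgtatttgtataaacgcatctcagctcc

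Bche, the other cholinesterase, which is made largely outside neurons, went the opposite way to Ache, with 95.5 units in control brain and 152.7 units in F/F;Nes brain on the probe measured on both, a difference of 1.26 ± 0.21. Slc44a3, a choline transporter-like protein, was seen on the F/F;Nes array only, at a level at least 2.56-fold higher. Colq and Prima1, which anchor acetylcholinesterase outside and on the cell, differed by -0.53 ± 0.25 and -0.46 ± 0.36.

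Of 15 further nicotinic subunits, 8 were measured on both arrays, with 0 at least 2-fold lower, 1 at least 2-fold higher and a median of -0.03. Chrnb3, a subunit of habenular and midbrain dopamine neurons, gave 10.5 units in control brain and 27.8 units in F/F;Nes brain, 1.98 ± 0.29, while its other probe was below background on both arrays. Chrna10 had signal on the control array only, at least 2.44-fold lower, and Chrnb1, a muscle subunit, on the F/F;Nes array only, at a level at least 2.17-fold higher. Of 1707 genes of the latter kind 41.8% had a bound of 2-fold or more. Chrnb2, which pairs with Chrna4 in the main brain receptor, differed by -0.44 ± 0.20. Of the 3 further muscarinic receptors, Chrm3 differed by -0.45 ± 0.16 and Chrm4 by 0.44 ± 0.21, and Chrm5 was seen on the control array only with no fold.

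Among 10 chaperones and modulators of nicotinic receptors, 9 were measured on both arrays, 0 of them 2-fold different, with a median of 0.04. The widest differences were those of Lypd6 (0.89 ± 0.16), Ly6e (-0.75 ± 0.20) and Tmem35a (-0.73 ± 0.20). The Lypd6 probes disagreed, at -0.37 and 2.14. Musk, the kinase that organises the neuromuscular junction, was seen on the F/F;Nes array only, at a level at least 3.45-fold higher.

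Of 22 further transcription factors of cholinergic lineages, 15 were measured on both arrays, 0 at least 2-fold lower and 4 at least 2-fold higher, with a median of 0.43. Otx2, a forebrain and midbrain homeodomain factor also made by choroid plexus, differed by 1.36 ± 0.14, with its 3 probes at 0.95, 1.40 and 1.72. Gbx2, a homeodomain factor of the anterior hindbrain and of striatal cholinergic precursors, differed by 1.11 ± 0.29. The values for Pou4f1 (1.63 ± 0.20) and Lhx6 (1.32 ± 0.20) each rest on 1 probe with a simple repeat, and their probes without one were below background on both arrays. Among 6 choroid plexus markers with signal on both arrays, 4 were higher by 2-fold or more, and Otx2 is itself 1 of these 4. The part of choroid plexus RNA in the Otx2 value was not tested.

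Of 14 genes for neurotrophin receptors and cargo of cholinergic neurons, 9 were measured on both arrays. Of these 8 lay below 0, 1 was at least 2-fold lower and 0 were at least 2-fold higher, with a median of -0.38. Npy1r, a neuropeptide Y receptor, gave 1148 and 125.6 units in the control and 308.5 and 29.6 units in F/F;Nes, with a mean of -1.41 ± 0.15. Tacr3, the neurokinin B receptor, had 24.9 units in control brain and 3.49 units in F/F;Nes brain, where it was not well above background, at least 3.29-fold lower. Ngfr, the low-affinity neurotrophin receptor, differed by -0.55 ± 0.21.

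**Figure D5:**
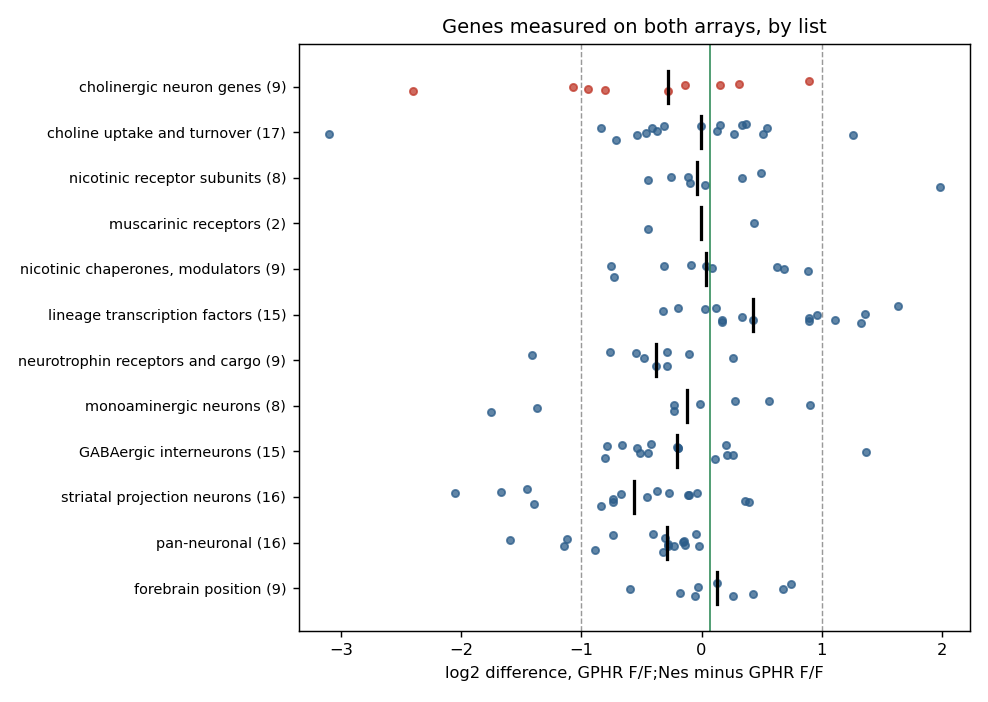
Difference (log2, F/F;Nes minus control) of each gene measured on both arrays on the x axis, by list, with the number of genes in brackets, black bars for the list medians, dashed lines at 2-fold and a green line at the median of all genes. The cholinergic neuron genes have a median of -0.28, the lineage transcription factors 0.43 and the pan-neuronal genes -0.29.

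Markers of other cells differed beside the members. All 16 pan-neuronal genes were measured on both arrays and lay below 0, with a median of -0.29 and a summed level of 320.1 in the control and 258.0 in F/F;Nes, in multiples of the array's 75th percentile. Neurofilament genes were lowest (Nefm -1.60, Nefl -1.14 and Nefh -1.12). Of 16 striatal projection neuron genes 4 were lower by 2-fold or more, and the list had a median of -0.56 and summed levels of 18.4 and 12.1. Of 15 GABAergic interneuron genes 0 were at least 2-fold lower and 1 at least 2-fold higher, with a median of -0.21 and summed levels of 174.1 and 111.4. In that list 10 genes lay below 0 and 5 above it. The brightest genes of a list weigh most in its summed level. Of 9 forebrain position genes 0 were 2-fold different, with a median of 0.13 and summed levels of 63.7 and 59.6. The lists of microglia, vascular, meningeal and choroid plexus genes lay higher. Their medians were 1.46 for microglia (8 of 10 measured on both, summed levels 1.79 and 3.19), 1.13 for endothelial and mural cells (6 of 12, 6.35 and 14.0), 2.07 for meninges (9 of 11, 8.59 and 14.0) and 1.35 for choroid plexus (6 of 9, 0.957 and 6.10). P2ry12 of microglia and Cldn5, Cdh5, Tek, Rgs5 and Kcnj8 of the vascular list were not well above background on either array. Astrocyte and oligodendrocyte lineage genes, 10 of 10 measured in each list, had medians of 0.19 and -0.09, and hindbrain and spinal position genes (6 of 15) a median of 0.09. Their part in the members' differences was not tested.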

How the data were processed

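Total RNA of brain was measured on 2 Agilent 1-colour arrays, 1 per genotype, labelled with Cy3 per the labels' protocols. Per the submitters' processing notes the scans were read with Agilent Feature Extraction 11.5.1.1. The deposited scanner output gives a processed intensity per spot on a linear scale, background-subtracted per the file headers, with deposited flags (other values, 0 or 1) for spots well above background, saturated or outlying. The deposited raw intensity and background intensity served 1 alternative. The deposited value table is on the log2 scale, and in each column 99.9% of probes lay within 0.001 of the log2 processed intensity shifted by a constant, -8.01 for the control and -7.43 for F/F;Nes. The column medians were -3.19 and -2.92. Their scale, direction and lack of centring per probe follow from this match. The setting of these constants is not stated in the labels. Against the main scaling the deposited table shifted the median of all genes by only -0.002, so it is nearly the same scaling and no independent check. The probe positions use mm9 (per the file headers), and exons under the probes were not analysed here.

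Spots with an outlier flag were left out, replicate spots of a probe were averaged as log2 values, and the 75th percentile over 56603 probes was then subtracted within each array. Of these probes 36717 were well above background on both arrays. Names of 32993 probes were matched by accession to RefSeq (GRCm38.p6), and 1535 probes changed symbol. Summed levels are sums over a list's genes measured on both arrays. No test between genotypes was made. The members, lists and naming rule were chosen with earlier results of these data known. The rule took every member, list genes at least 2-fold different or with such a bound, otherwise the 3 largest differences of a list, at most 3 genes of a marker list, and Gpr89. Genes named outside it (Chrnb2, Colq, Prima1, Ngfr, Chrm5, the markers not above background on either array, and in the closing section Th, Slc18a2, Lypd6b and Snap25) were chosen after their values were seen. Many list genes are also expressed outside cholinergic cells.

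Alternatives were median centring, quantile normalization, loess on the mean level (span 0.3), normexp (offset 50) with quantile normalization, the deposited table, the percentile over probes above background, spike-in scaling (8 probes), other filters on dim probes, a gene's brightest probe, the median over its probes, no removal of outlier spots, and thresholds of 1.5-fold and 3-fold. Leaving out probes with simple repeats was added after seeing the data. The calculation was tested on simulated data. Software was limma 3.58.1 in R 4.3.3, and pandas 2.3.3 and numpy 2.4.6 in Python 3.11.15.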

Additional observations from a re-analysis of the deposited data

How the results depend on the processing

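The members at least 2-fold lower were 2 as reported, 4 with median centring, 6 with spike-in scaling and 0 with normexp (here always with quantile normalization). With other thresholds 4 were lower at 1.5-fold and 1 at 3-fold. Among probes of at least 50 units on both arrays the count was 0 of 4 members. That filter left out the Slc18a3 probe (9.45 units in F/F;Nes) and the dimmer Ache probe (42.7 units), so its 0 rests partly on the filter. The share of all genes lower by as much was 1.37% as reported, 3.39% with median centring, 46.0% with spike-in scaling and 0.361% with normexp. It was 1.17% among probes of at least 50 units, 5.73% at 1.5-fold and 0.249% at 3-fold. The count of members was 3 with quantile normalization, loess, no filter, the brightest probe and the median over probes. In these settings 2.37%, 1.96%, 2.11%, 1.56% and 1.39% of all genes were lower by as much. Lhx8 passed 2-fold with quantile normalization (-1.12) and loess (-1.06), and Ache was short of it with the brightest probe (-0.88). Members at least 2-fold higher were 0 as reported and 1 (Chat) with the brightest probe, with the median over probes and among probes of at least 50 units. There the Chat value was that of the repeat probe (1.05), and 8.29%, 7.95% and 3.84% of all genes were at least 2-fold higher. At 1.5-fold 1 member was higher, as were 18.1% of all genes. The members' median, -0.28 as reported, lay between -1.31 with spike-in scaling and -0.14 with normexp. It was -0.55 with median centring, -0.68 with quantile normalization, -0.60 with loess and -0.54 with no filter. Among probes of at least 50 units it was -0.40, over 4 members. In the pathway lists, genes at least 2-fold lower were 2 as reported, 6 with median centring, 30 of 60 with spike-in scaling, 6 with no filter, 7 at 1.5-fold and 1 at 3-fold. The shares of all genes lower by as much are those above. Pathway genes at least 2-fold higher were 6 as reported, 2 with normexp, 0 with spike-in scaling, 10 with no filter, 12 at 1.5-fold, 2 at 3-fold, and 4 without repeat probes. Of all genes, 7.93% were higher by as much as reported, 1.38% with normexp, 0.576% with spike-in scaling and 14.9% with no filter. The share was 18.1% at 1.5-fold, 2.28% at 3-fold and 7.67% without repeat probes. By construction, thresholds and filters change the genes counted, median centring and spike-in scaling shift all genes alike, and the normexp offset shrinks dim differences. Otherwise the cause was not tested.

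Slc18a3 stayed below 0 in all alternatives that measured it, from -3.43 (spike-in scaling) to -0.83 (normexp), and Slc10a4 from -4.13 to -1.15. Ache, Lhx8, Isl1, Chrm1 and Chrna4 also stayed below 0. Chat lay between -0.14 and 1.05, Chrm2 between -0.72 and 0.36, and Gbx1 between -0.87 and 0.21. Over all genes, 85.3% of 2-fold differences were higher in F/F;Nes as reported, 56.9% with median centring, 68.4% with quantile normalization, 74.7% with loess and 1.24% with spike-in scaling. The median of all genes shifted by -0.28 with median centring, -0.11 with quantile normalization and -1.03 with spike-in scaling. The Slc5a7 bound on its brighter probe ranged from -2.81 to -0.47. With 1 array per genotype no paired analysis was possible, and precision is limited by the number of arrays. Signal over background limits Slc18a3, Slc10a4, Slc5a7, Chat, Gbx1, Isl1 and Chrm2.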

Other observations

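Monoaminergic neuron genes, which share Slc10a4 with cholinergic neurons, also differed unevenly. Of 11 listed, 8 were measured on both arrays, with 2 at least 2-fold lower, 0 at least 2-fold higher and a median of -0.12. Dbh, the enzyme that makes noradrenaline, gave 39.7 units in control brain and 7.88 units in F/F;Nes brain on the probe measured on both arrays, a difference of -1.75 ± 0.28. Slc6a3, the dopamine transporter, gave 192.6 units and 49.8 units, a difference of -1.37 ± 0.21. Th, the rate-limiting enzyme of catecholamine synthesis, differed by -0.23 ± 0.21, and Slc18a2, the vesicular monoamine transporter, by -0.23 ± 0.21. Slc6a4, the serotonin transporter, was seen on the F/F;Nes array only, at a level at least 3.90-fold higher on one probe.

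Besides Chat, Pou4f1 and Lhx6, the listed genes Lypd6b and Snap25 had a probe with a simple repeat. For Lypd6b the repeat probe differed by 1.71 ± 0.20 and the other by -0.45 ± 0.20. For Snap25, a synaptic SNARE protein, the repeat probe differed by 0.87 ± 0.20 and the other probes by -0.84 ± 0.20 and -0.45 ± 0.20. In both genes the repeat probe lay above 0 and every other probe below it.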
